A study of Rattus with 12 samples.

Results

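The 10 genes described here encode the neural extracellular matrix that surrounds neurons, namely the lecticans Acan, Bcan, Ncan and Vcan, the link proteins Hapln1 and Hapln4, the tenascins Tnr and Tnc, the receptor phosphatase Ptprz1 and the hyaluronan synthase Has2. They were chosen by symbol, and all 10 were found among the 17337 gene symbols of the count table. RNA was sequenced from 12 complex cultures of Sprague Dawley rat cortical neurons, astrocytes and oligodendrocyte precursor cells (OPCs), which were left untreated or were exposed at 24 to 26 days in vitro to 0.01 μM (low dose) or 10 μM (high dose) of the opioid fentanyl for 4 days. There were 4 cultures per condition, and the untreated cultures received medium alone. Each culture carries a letter in its label, and the untreated cultures are A, G, M and P, the low dose was given to B, H, N and Q, and the high dose to C, I, O and R. As a model, the cultures hold purchased primary cells mixed in fixed proportions, and a bulk library cannot tell fewer cells of a type from less RNA per cell.

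Perineuronal nets are lattices of matrix that wrap the soma and proximal dendrites of some cortical neurons, above all fast-spiking interneurons, and form as circuits mature. Their backbone is hyaluronan, which is made at the plasma membrane by hyaluronan synthases. Lecticans are chondroitin sulfate proteoglycans that bind hyaluronan through one end of the core protein, link proteins lock this bond, and tenascin-R crosslinks the other ends of the lecticans. Ptprz1 is a receptor-type phosphatase and a chondroitin sulfate proteoglycan of glia that binds tenascins and contactins.

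Total counts lay between 12059872 and 24813893 in the 12 cultures, and levels are given as CPM, which are counts scaled to a common library size after correction by the trimmed mean of M-values (TMM). The lowest count of any of the 10 genes in any culture was 4, above the floor of 3 counts that was taken as not detectable. Cultures with consecutive letters (ABC, GHI, MNO and PQR, called letter sets here) hold 1 culture of each dose, and neither the labels nor the study says what the letters stand for. Untreated culture G stood apart from the rest, since each of 12 neuron markers was lower in it than in the other 11 cultures, with a summed level of 582 CPM against 4107 to 8644 CPM. By its label G is a neuron and glia culture like the others, and its summed neuron markers were at 0.102 of the median of the others, so untreated means and fitted differences that moved most with it are also given without it. No marker of astrocytes, OPCs, oligodendrocytes or, although not seeded, microglia was at or below the floor in every culture. The microglia marker Cx3cr1 had a lowest count of 0. Summed microglia markers were at 43.2, 52.7 and 44.2 CPM in cultures P, Q and R, against 374 to 1579 CPM in the other cultures.

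All 4 lecticans were detected in every culture, namely brevican (Bcan), neurocan (Ncan), versican (Vcan) and aggrecan (Acan), the lectican most closely tied to perineuronal nets. Acan was at 2.07, 0.26, 2.81 and 15.6 CPM in untreated cultures A, G, M and P, at 2.23, 2.04, 7.70 and 15.3 CPM in low dose cultures B, H, N and Q, and at 2.01, 1.20, 2.06 and 2.81 CPM in high dose cultures C, I, O and R. The levels above 5 CPM were in 1 untreated and 2 low dose cultures. The 4 high dose cultures sat within the range of the others only through culture G at 0.26 CPM. Without G, the lowest level at the other doses was 2.04 CPM in H, and high dose cultures C and I lay below it. The mean of Acan was 5.17 ± 7.0 CPM (SD, n = 4) without fentanyl, 6.83 ± 6.25 CPM at the low dose and 2.02 ± 0.66 CPM at the high dose. Behind these levels stand 4 to 223 counts per culture, so that Acan is measured with less precision than the other lecticans.

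Vcan, the lectican of immature and diffuse matrix and of the oligodendrocyte lineage, was at 96.0, 347, 345 and 566 CPM in untreated cultures A, G, M and P, at 119, 280.4, 280.3 and 496 CPM in low dose cultures B, H, N and Q, and at 135, 382, 382 and 563 CPM in high dose cultures C, I, O and R. The culture from ABC was lowest and that from PQR highest at each of the 3 doses. The means were 338 ± 192 CPM (SD, n = 4), 294 ± 155 CPM and 366 ± 176 CPM in untreated, low dose and high dose cultures. These ranges overlapped throughout.

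Bcan, which is made by astrocytes and the oligodendrocyte lineage, ranged from 215 to 1302 CPM over the 12 cultures, with means of 654 ± 462 CPM (SD, n = 4) without fentanyl, 663 ± 416 CPM at the low and 586 ± 375 CPM at the high dose. Ncan, a lectican of the developing brain made by astrocytes and neurons, was at 263, 4059.8, 491 and 1841 CPM in untreated cultures A, G, M and P, at 219, 371, 573 and 1720.4 CPM in low dose cultures B, H, N and Q, and at 229, 344, 361 and 1776 CPM in high dose cultures C, I, O and R. Culture G had the highest Ncan level of all, and P, Q and R followed it. Without G the untreated mean of Ncan moved from 1664 ± 1743 CPM (SD, n = 4) to 865 ± 853 CPM (n = 3), beside 721 ± 682 CPM at the low dose and 677 ± 735 CPM at the high dose.

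**Figure D1:**
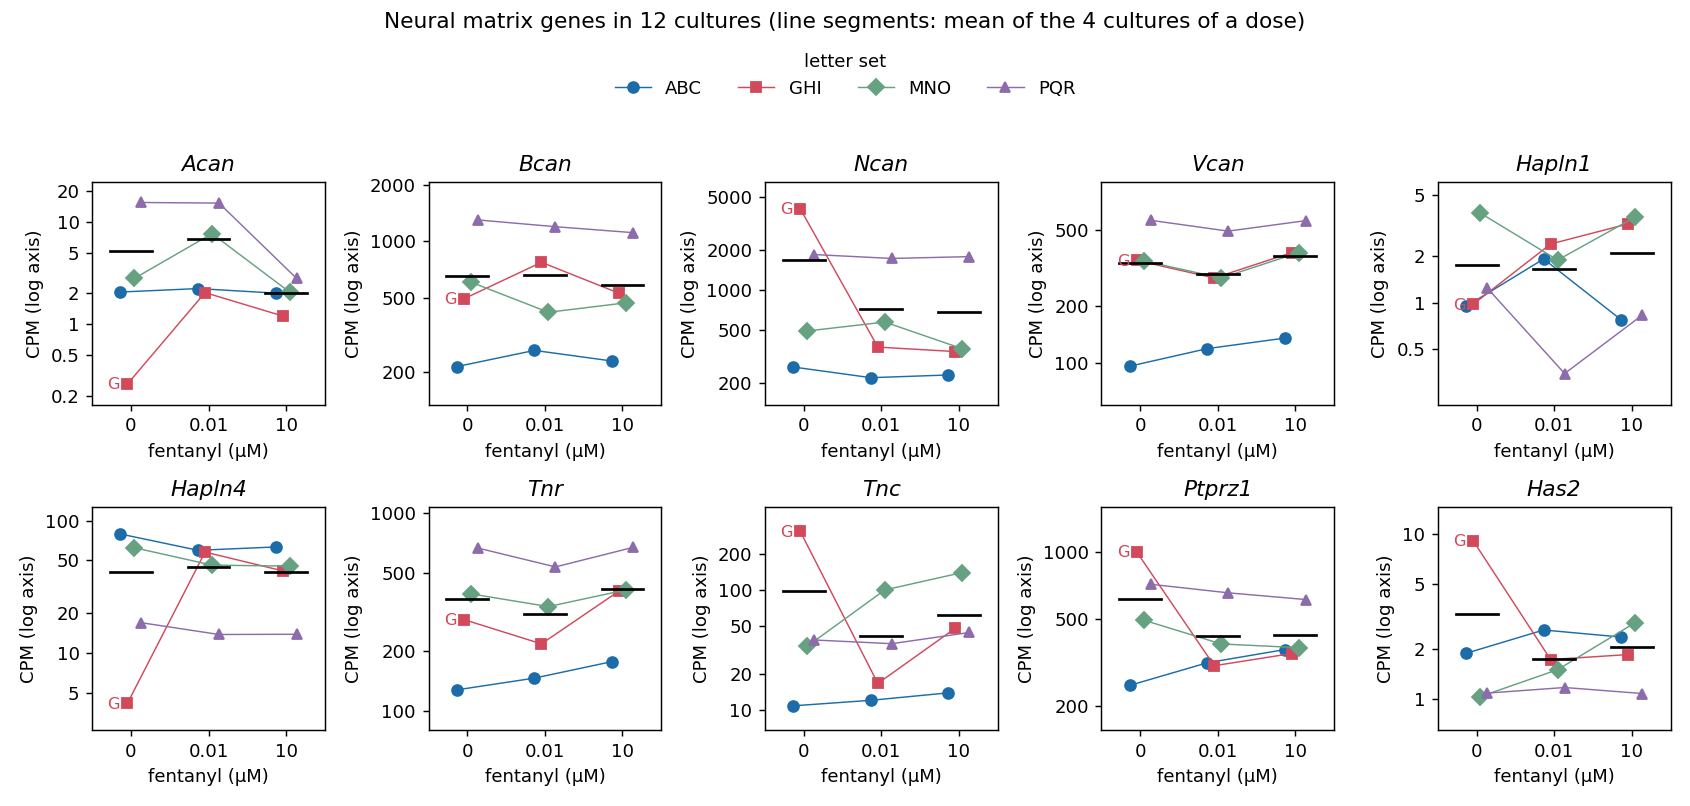
Level of each of the 10 matrix genes (CPM on a log axis) by fentanyl dose in μM. Each point is 1 culture, coloured by letter set and joined within it by a thin line (the letters are not a stated pairing), black segments are the means of 4 cultures, and G marks the untreated culture with few neuron transcripts. For Bcan, Ncan, Vcan and Tnr the points of PQR lie above those of ABC at each dose, while the dose means differ by less than the spread of the cultures.

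The hyaluronan side of the matrix was represented by Has2 and the link proteins. Has2, a synthase that makes long hyaluronan chains, had 13 to 141 counts per culture. It was at 1.89, 9.15, 1.03 and 1.08 CPM in untreated cultures A, G, M and P, and between 1.08 and 2.90 CPM in the 8 fentanyl-treated cultures. Only culture G exceeded 3 CPM, and without it the untreated mean was 1.33 ± 0.48 CPM (SD, n = 3) in place of 3.29 ± 3.93 CPM (n = 4). Hapln1, the link protein that stabilises lectican and hyaluronan complexes in nets and in cartilage, ranged from 0.34 to 3.84 CPM, or 5 to 65 counts. Its means of 1.75 ± 1.40 CPM (SD, n = 4) without fentanyl, 1.64 ± 0.90 CPM at the low and 2.12 ± 1.53 CPM at the high dose lay close together against this spread.

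Hapln4, a brain link protein made by neurons, was at 79.2, 4.15, 62.3 and 16.9 CPM in untreated cultures A, G, M and P, at 59.6, 57.8, 46.1 and 13.8 CPM in low dose cultures B, H, N and Q, and at 63.2, 41.7, 45.3 and 13.8 CPM in high dose cultures C, I, O and R. Culture G was lowest and P, Q and R were next, in a narrow band. The means were 40.6 ± 35.8 CPM (SD, n = 4) without fentanyl, 44.3 ± 21.2 CPM at the low and 41.0 ± 20.4 CPM at the high dose, and the untreated mean without G was 52.8 ± 32.2 CPM (n = 3).

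Of the tenascins, Tnr, which is made mainly by oligodendrocyte lineage cells and some neurons, was at 128, 289, 390.1 and 665 CPM in untreated cultures A, G, M and P, at 146, 218, 336 and 534 CPM in low dose cultures B, H, N and Q, and at 177, 403, 409 and 669.9 CPM in high dose cultures C, I, O and R. The high dose culture of each letter set had more Tnr than both other cultures of its set. The means were 368 ± 226 CPM (SD, n = 4), 309 ± 169 CPM and 415 ± 201 CPM in untreated, low dose and high dose cultures, and the doses overlapped.

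Tnc, the tenascin of immature and reactive astrocytes and of connective tissue, was at 10.8, 309 and 34.01 CPM in untreated cultures A, G and M and at 38.3 CPM in P. It was at 12, 16.6, 100.4 and 35.7 CPM in low dose cultures B, H, N and Q, and at 13.9, 48.1, 140.4 and 44.3 CPM in high dose cultures C, I, O and R. Cultures G, N and O stood above 100 CPM, and 1 of them came from each dose. The untreated mean of Tnc was 98.2 ± 141 CPM (SD, n = 4) with G and 27.7 ± 14.8 CPM (n = 3) without it, beside 41.2 ± 40.8 CPM at the low and 61.7 ± 54.7 CPM at the high dose. The summed level of 10 fibroblast or meningeal markers was 2350 CPM in G, 3687 CPM in N and 679 CPM in O, against 370 to 788 CPM in the other 9. Not every marker followed the sum, as Dcn was at 68.3 CPM in G but at 0.59 CPM in N. The part of these cells in the Tnc level was not tested. Ptprz1 ranged from 248 CPM in culture A to 1005 CPM in culture G, with means of 615 ± 323 CPM (SD, n = 4) without fentanyl, 414 ± 164 CPM at the low and 422 ± 126 CPM at the high dose. Without G, the untreated mean of Ptprz1 was 485 ± 234 CPM (n = 3).

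The first question of the design was whether the low dose altered transcription. In low dose vs. untreated cultures none of the 10 matrix genes was called, which needed a log2 fold change over 0.5 and an adjusted p under 0.05 (quasi-likelihood test of edgeR with 1 factor of unwanted variation), where 0 of 12271 genes tested were called (0%). An unadjusted p under 0.05 was reached by 0 of the 10 genes and by 91 of all genes (0.742%). The log2 fold changes ran from -0.61 (SE 0.995) for Ncan to 0.60 (SE 0.78) for Acan, each with an adjusted p of 1.0 from edgeR. Fitted values were above 0 for 4 genes and below 0 for 6, with a median of -0.10 beside 0.01 over all genes tested. Both ends depended on single cultures, since without G Ncan was at -0.019 (SE 0.25). Acan was at 2.02 without untreated culture P, at 0.059 without low dose culture Q and at 0.086 without low dose culture N. Without G, Hapln4 turned from 0.15 to -0.30 and Tnc moved from 0.12 to 0.75. Within the letter sets no gene was higher at the low dose in all 4 sets (4.06% of all genes were), and none was lower in all 4 (5.28% of all genes). With the set GHI left out, Has2 was higher in the other 3 sets (13.9% of all genes) and Hapln4 was lower in them (13.7% of all genes). The log2 difference of Hapln4 at the low dose was -0.41 in ABC, -0.44 in MNO and -0.29 in PQR, and 3.77 in GHI against culture G.

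In high dose vs. untreated cultures, which share the untreated cultures with the first comparison, none of the 10 genes was called (edgeR), where 0 of all genes were (0%), and 0 of the 10 had an unadjusted p under 0.05 (1.19% of all genes). The log2 fold changes ran from -1.19 (SE 0.81) for Acan to 0.75 (SE 0.62) for Tnc, with an adjusted p of 1.0 each. Both ends changed sign under other settings, as Acan was at 0.19 without untreated culture P and Tnc at -0.67 without the factor and at -0.35 with the letter sets as a replicate block. Without culture G, Tnc was at 1.33 (SE 0.91), Ncan moved from -0.69 to -0.11 and Hapln4 from 0.04 to -0.51. The median of the 10 genes was 0.08 beside 0.003 over all genes tested, and 6 were above 0. Tnr was higher in all 4 letter sets (5.22% of all genes were), by 0.47, 0.48, 0.07 and 0.01 on the log2 scale in ABC, GHI, MNO and PQR. Ncan was lower in all 4 (5.22% of all genes), by a log2 difference of -0.20, -3.56, -0.44 and -0.05 in the same order, of which the second is against culture G. In the 3 sets without GHI, Acan, Ncan, Hapln1 and Hapln4 were lower (14.5% of all genes) and Tnr and Tnc were higher (15.1% of all genes). The Hapln4 difference was of like size in these sets, at -0.32 in ABC, -0.46 in MNO and -0.29 in PQR, and it was 3.30 in GHI.

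High dose vs. low dose cultures gave the contrast of the 2 exposures. None of the 10 genes was called (0% of all genes), and 1 of the 10, Acan, had an unadjusted p under 0.05 in this fit (1.17% of all genes). Its log2 fold change was -1.79 with an SE of 0.80, and edgeR gave it an adjusted p of 1.0. Acan was lower at the high dose in all 4 letter sets (11.1% of all genes were), with a log2 difference of -0.14 in ABC, -0.71 in GHI, -1.85 in MNO and -2.41 in PQR. It was smaller in ABC and GHI, where Acan was at 2.23 and 2.04 CPM at the low dose, than in MNO and PQR, where it was at 7.70 and 15.3 CPM. The low dose level is itself a term of this difference, so this order is not a separate result. Acan is among the genes that the study chose on these same cultures, so its pattern here is not independent of that choice.

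Vcan, Tnr and Tnc were higher at the high than at the low dose in all 4 letter sets (11.7% of all genes were). For Vcan the log2 difference was 0.18, 0.45, 0.45 and 0.18 in ABC, GHI, MNO and PQR. For Tnr it was 0.28, 0.89, 0.28 and 0.33, and for Tnc 0.21, 1.53, 0.48 and 0.31. The summed OPC markers also were higher at the high dose in each set, by 0.09, 0.03, 0.27 and 0.02, and neuron markers by 0.07, 0.05, 0.21 and 0.31, while astrocyte markers differed by 0.03, -0.33, -0.16 and -0.50, oligodendrocyte markers by -0.24, -0.21, 0.68 and -0.08, and fibroblast or meningeal markers by 0.12, -0.23, -2.44 and -0.20. The part of these cells in the 3 genes was not tested. In the fit over 12 cultures the log2 fold change was 0.32 (SE 0.59) for Vcan, 0.43 (SE 0.55) for Tnr and 0.63 (SE 0.61) for Tnc, each with an adjusted p of 1.0 (edgeR). Bcan, Ncan, Hapln1, Hapln4, Ptprz1 and Has2 each had differences of both signs over the letter sets. None of the 10 genes separated 2 doses without overlap in any comparison. Over all genes tested, 0.196% lay wholly above and 0.212% wholly below the untreated cultures at the low dose, 0.359% and 0.326% did so at the high dose, and 0.668% and 0.522% did so at the high against the low dose.

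**Figure D2:**
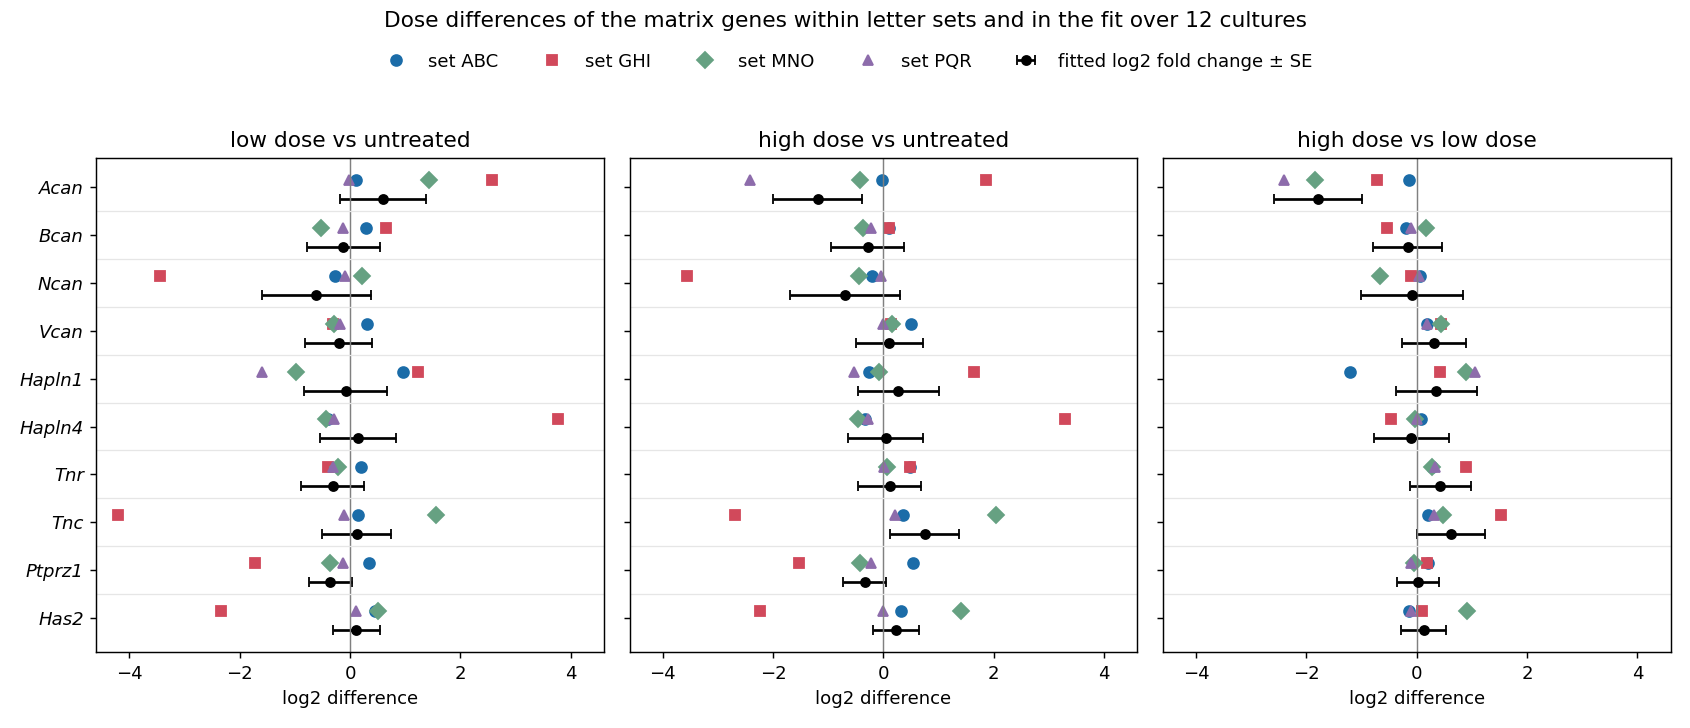
Log2 differences of the 10 matrix genes in the 3 comparisons. Coloured symbols are the differences of log2(CPM + 0.1) within 1 letter set, and black points with bars are the fitted log2 fold changes ± SE over the 12 cultures. In the 2 comparisons with untreated cultures the red squares of set GHI, which holds culture G, lie far from the other sets for Ncan, Hapln4, Tnc, Ptprz1 and Has2, and in high dose vs. low dose all 4 symbols lie left of 0 for Acan and right of 0 for Vcan, Tnr and Tnc.

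The cultures differed far more by letter set than by dose. Between the sets lay 95.7% of the sum of squares of log2(CPM + 0.1) for Vcan, 94.8% for Bcan and 91.4% for Tnr, and between the doses 2.43%, 0.645% and 5.5%. These were the 3 highest shares between sets. The median of the 10 genes was 60.9% between sets and 5.01% between doses, and that of all genes tested 55.7% and 8.68%. Hapln4 (51.7%), Tnc (52.8%), Ptprz1 (48.3%) and Has2 (41.4%) lay below the median of all genes between sets. In the 9 cultures without GHI, the share between sets was above 96% for Bcan (97.5%), Ncan (98.0%), Vcan (96.9%), Hapln4 (96.6%) and Tnr (96.7%), with a median of 91.9% over the 10 genes beside 76.2% over all genes tested. Acan held the lowest share between sets (51.9%) and the highest between doses (27.7%) of the 10 genes in these 9 cultures, followed by Has2 with 55.7% and 19.5%.

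**Figure D3:**
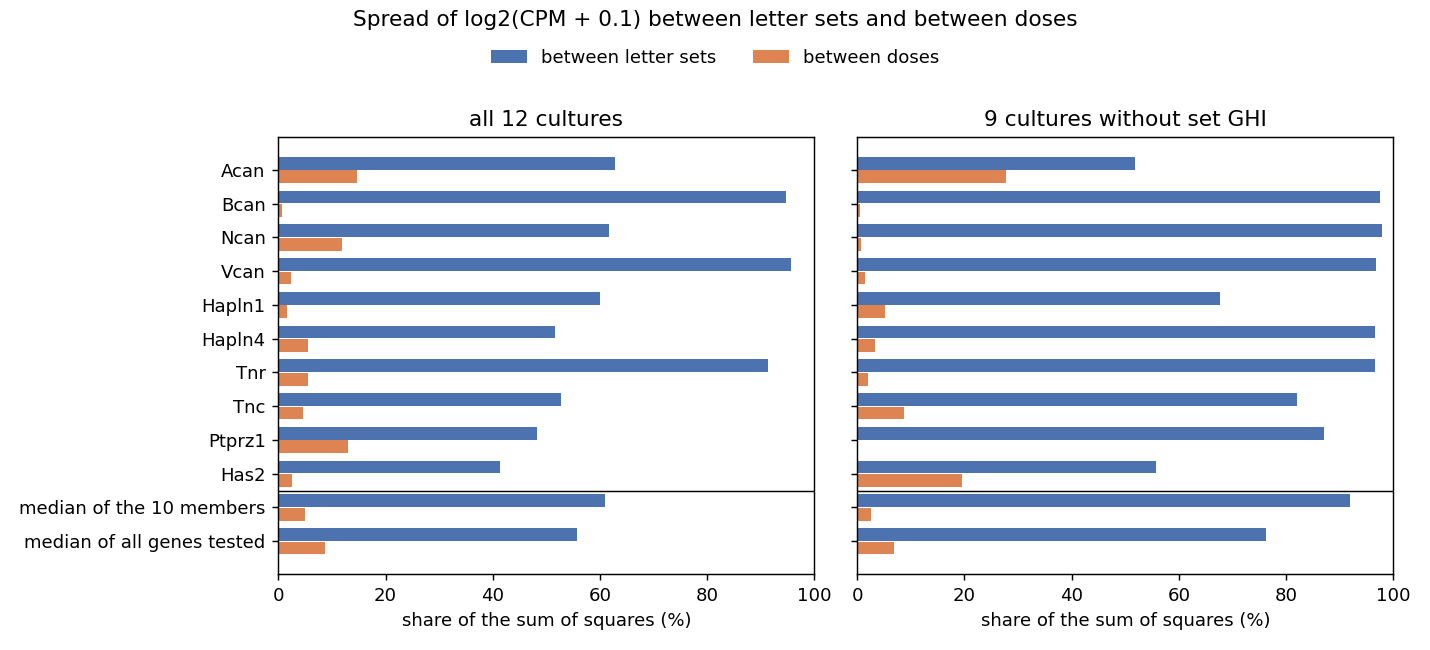
Share of the sum of squares of log2(CPM + 0.1) that lies between letter sets (blue) and between doses (orange), in percent, for each matrix gene and as medians of the 10 genes and of all genes tested. In the 9 cultures without GHI, the blue bars of Bcan, Ncan, Vcan, Hapln4 and Tnr exceed 96%, and the orange bar of Acan is the longest among the 10 genes, at 27.7%.

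Set against ABC, the 3 cultures P, Q and R had more of 7 matrix genes. Acan, Bcan, Ncan, Vcan, Tnr, Tnc and Ptprz1 were each higher in all 3 of P, Q and R than in any of A, B and C (33.6% of all genes were). The set means differed by 7.50-fold for Ncan, 5.34-fold for Acan, 5.11-fold for Bcan, 4.64-fold for Vcan, 4.14-fold for Tnr, 3.23-fold for Tnc and 2.14-fold for Ptprz1. In the opposite direction, Hapln4 was 4.55-fold and Has2 2.07-fold higher in ABC, without overlap (33.4% of all genes). Hapln1 overlapped between the sets. Summed markers moved along with these differences, with 4.02-fold more OPC, 5.16-fold more oligodendrocyte and 2.43-fold more astrocyte markers in PQR, while neuron markers were at 0.559 and microglia markers at 0.0976 of the level in ABC. Of the markers, 8 of 8 for OPCs, 8 of 10 for oligodendrocytes and 8 of 11 for astrocytes were higher in PQR without overlap, and 8 of 12 for neurons and 9 of 10 for microglia were lower. The part of these cells in the levels of the matrix genes was not tested.

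**Figure D4:**
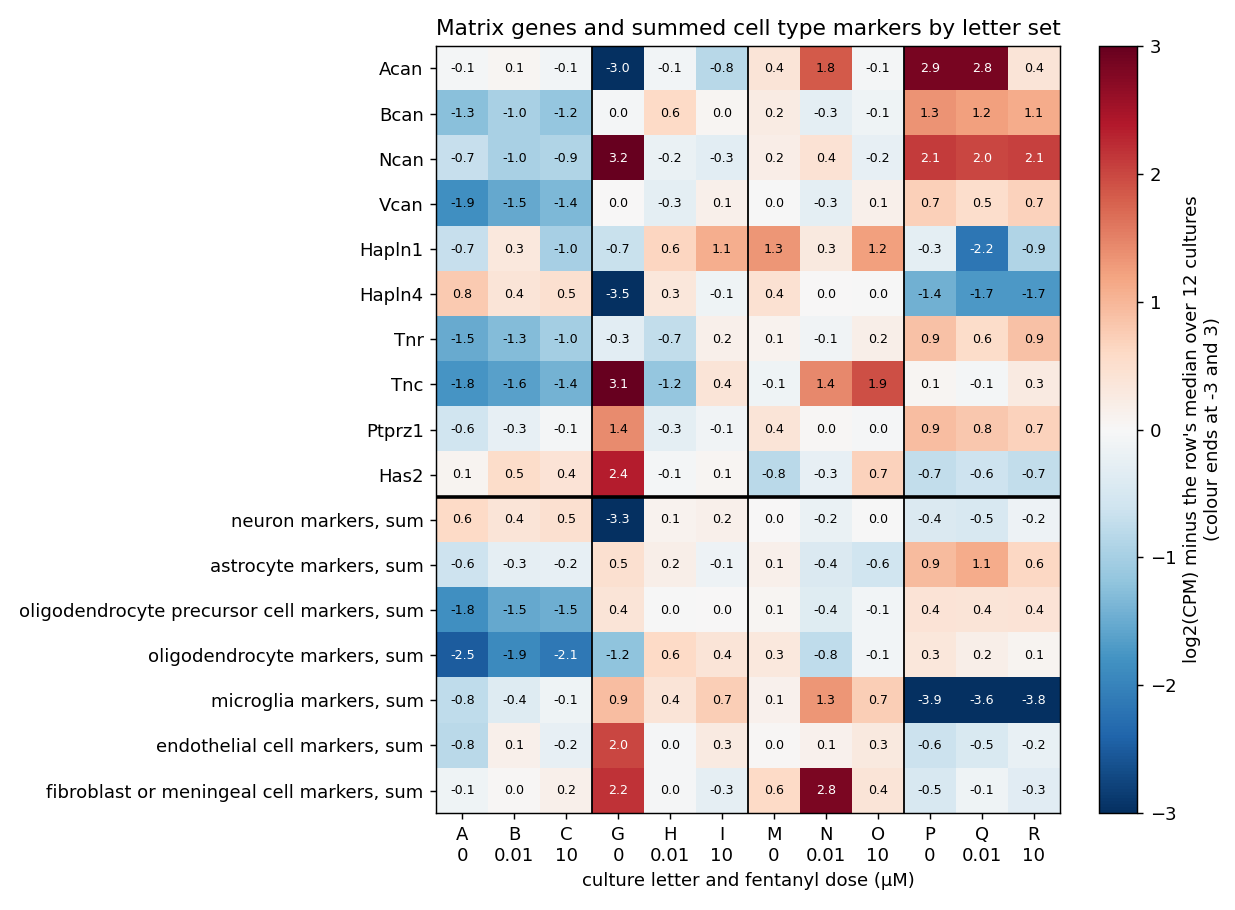
Level of each matrix gene (upper 10 rows) and summed level of the markers of 7 cell types (lower rows) in each culture, as log2(CPM) minus the median of the row over the 12 cultures, with cultures ordered by letter set and dose in μM below the letter. In culture G, Hapln4 and Acan are low together with the neuron markers while Ncan, Tnc, Has2 and Ptprz1 are high, and the columns of A, B and C are low for Vcan, Bcan, Tnr and the markers of the oligodendrocyte lineage.

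Culture G lay outside the range of the other 11 cultures for 6 of the 10 genes. This was not particular to them, as 27.7% of all genes lay above that range in G and 28.4% below it. Hapln4 and Acan were lower in G than in each of the other 11 cultures (28.4% of all genes were), at 0.0901 and 0.116 of the median of the others, beside 0.102 for the summed neuron markers. Ncan, Tnc, Has2 and Ptprz1 were higher in G than in each of the others (27.7% of all genes), by 10.9-fold, 8.67-fold, 5.29-fold and 2.73-fold over their median. Bcan (0.934), Vcan (1.01) and Tnr (0.741) lay near the median of the others. In the same culture the summed markers were at 1.54 of the median of the others for astrocytes, 1.33 for OPCs, 0.408 for oligodendrocytes, 2.04 for microglia, 4.10 for endothelial cells and 4.65 for fibroblast or meningeal cells. Gfap, an intermediate filament of astrocytes, was at 4293 CPM in G against a median of 1771 CPM, and Col1a2, a fibrillar collagen chain of fibroblasts, at 691 CPM against 68.0 CPM. Gfap alone gave 4293 of the 10223 CPM of the astrocyte sum in G. Of the 11 astrocyte markers, 4 were higher and 1 was lower in G than in every other culture. Aldoc (225 against a median of 718 CPM), Slc1a3 (502 against 652 CPM) and Glul (2100 against 2809 CPM) were among those below the median. The part of each cell type in the levels of Ncan, Tnc, Has2 and Ptprz1 was not tested.

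The 10 genes did not share 1 pattern over the 11 cultures other than G. The likeness of a pair was measured as the root mean square difference of log2(CPM + 1) after each gene was centred on its mean, where a small value means a like pattern. Vcan and Tnr were the closest pair (0.20), followed by Bcan with Vcan (0.35) and Bcan with Tnr (0.44). Among all genes tested, the closest to Vcan were Sgms2 (0.11), a sphingomyelin synthase, Frmd8 (0.12) and Sema3d (0.14), a secreted semaphorin, and Sema3d (0.14) was also among the 3 closest to Tnr, with Itpr2 (0.14), a calcium release channel, and Creb3l2 (0.15). The nearest genes were Rnd2 (0.14), Sirt2 (0.14) and Dusp15 (0.16) for Bcan, and Usp40 (0.11), Ptch1 (0.13), the Hedgehog receptor, and Aldh1l1 (0.15), an astrocyte marker, for Ptprz1. For Acan they were Crh (0.38), which encodes corticotropin-releasing hormone, Tmem100 (0.41) and Gch1 (0.45), against a median of 1.0 over all genes. Ncan had Lcat (0.26), Nppb (0.32) and FAM187A (0.35), and Tnc had Myof (0.33), Abcb1b (0.37) and LOC500300 (0.48). The closest to Hapln4 were Spint2 (0.25), Ankrd37 (0.27) and Cntn2 (0.27), an axonal contactin, and the closest to Hapln1 were Spock1 (0.23), Ccl12 (0.26) and Gad1 (0.28). Has2 lay near Mettl15 (0.16), Sh2d4a (0.17) and Esd (0.17), with a median of 0.40 over all genes. The 1 added to the CPM shrinks differences at low levels. It thus makes the values small for Has2, which ranged 2.82-fold up to 2.90 CPM in these 11 cultures. The same holds for Hapln1, which ranged 11.2-fold up to 3.84 CPM, so the neighbours of both genes partly reflect low levels.

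The wider matrix pathway was followed through 6 lists that hold none of the 10 genes, and 0 of their tested genes were called in any of the 3 comparisons (edgeR, 0% of all genes in each). In high dose vs. low dose cultures, the median log2 fold change was 0.00 over 10 genes of hyaluronan synthesis, binding and turnover, 0.02 over 9 other chondroitin sulfate core proteins, 0.08 over 17 ligands, receptors and partners, -0.06 over 12 lectican proteases and inhibitors, -0.03 over 19 enzymes of chondroitin sulfate synthesis and 0.19 over 12 genes of net-bearing interneurons, beside -0.01 over all genes tested. Of the 79 list entries tested, none had an unadjusted p under 0.05 in high dose vs. low dose or in low dose vs. untreated cultures, and 1, Cntn5, had one in high dose vs. untreated cultures.

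Named by the largest fitted difference between the doses, Nptx2 and Sema3a led the partners. Nptx2, a secreted pentraxin that gathers AMPA receptors on net-bearing interneurons, was at 13.4, 52.3, 111.9 and 168 CPM in low dose cultures B, H, N and Q and at 11.3, 30.3, 24.9 and 48.1 CPM in high dose cultures C, I, O and R, and edgeR fitted -1.71 on the log2 scale with an SE of 0.86 and an adjusted p of 1.0. Like Acan, it was lower at the high dose in each letter set, most of all in MNO and PQR, and in culture G it was at 0.0310 of the median of the others. Sema3a, a chemorepellent held in nets by chondroitin sulfate, was at 24.0 ± 16.7 CPM (SD, n = 4) at the low and 14.3 ± 9.59 CPM at the high dose, and was lower in each of the 4 sets. Sema3a is among the genes that the study chose on these cultures, as are Acan, Bgn and Dcn. Bgn, a small proteoglycan of connective tissue, was at 128 ± 128 CPM (SD, n = 4) at the low and 53.2 ± 32.2 CPM at the high dose. Low dose culture N alone had 316 CPM and the largest fibroblast marker sum of the 12 cultures. Bgn was lower at the high dose in each of the 4 letter sets (11.1% of all genes were), by little in ABC (97.3 CPM in B and 97.1 CPM in C). Dcn, a related proteoglycan, was at 1.20 ± 0.75 CPM and 1.02 ± 0.23 CPM at the 2 doses and at 68.3 CPM in culture G. It is itself a fibroblast marker of the sum but was at only 0.59 CPM in culture N.

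Of the proteases and inhibitors, Timp4, an inhibitor of matrix proteases, had a log2 fold change of -0.70 (SE 0.66) and Mmp9, a gelatinase that the study also chose on these cultures, of -0.42 (SE 0.38) in high dose vs. low dose cultures. Chst3, which adds the 6-O-sulfate of chondroitin chains, had 0.36 (SE 0.60) and was higher at the high dose in each of the 4 sets, and Chst14, a sulfotransferase of dermatan sulfate, had -0.28 (SE 0.36). Of the hyaluronan list, Hapln3, a link protein outside the nets, had -0.28 (SE 0.41) and was lower at the high dose in each of the 4 sets. Hyal1, a lysosomal hyaluronidase, had 0.16 (SE 0.37). Lhx6, a transcription factor of interneurons from the medial ganglionic eminence, had 0.80 (SE 0.40) and was higher at the high dose in each of the 4 sets. Its mean was less than 1 CPM at either dose (0.48 and 0.85 CPM). Syt2, a synaptotagmin of fast-spiking terminals, had 0.67 (SE 0.86). The adjusted p of each of these 8 genes was 1.0 (edgeR).

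**Figure D5:**
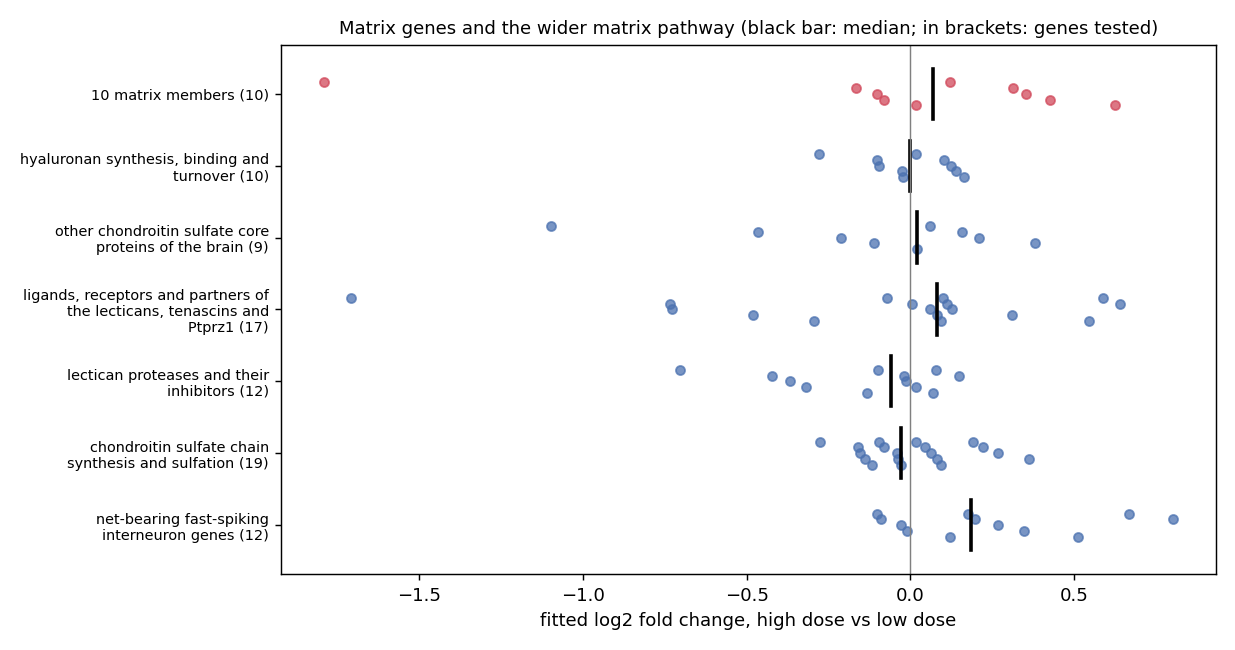
Fitted log2 fold change in high dose vs. low dose cultures for the 10 matrix genes (red) and for the genes tested of 6 lists of the wider matrix pathway (blue), with the number of genes in brackets and the median as a black bar. Medians lie between -0.06 and 0.19, and the lowest points are Acan (-1.79) among the 10 genes and Nptx2 (-1.71) among the partners.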

How the data were processed

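Poly(A)-enriched RNA of 12 cultures was sequenced by the authors, aligned to the rat build rn6 with STAR and counted per gene with featureCounts (per the labels and the study's methods, and the annotation is not given in the sources used here). The deposited values are whole-number counts per gene symbol with no normalization. All 10 members matched current RefSeq symbols (GRCr8, used for names only). Neither gene lengths nor sequences were used, so levels were not compared between genes.

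From the counts, 12271 genes were kept by filterByExpr, scaled by TMM and fitted with edgeR 4.0.16 under R 4.3.3 (limma 3.58.1), with dose and 1 factor from the RUVs procedure written anew in R, since the study names RUVseq and edgeR without the procedure or number of factors. The quasi-likelihood test was adjusted by the Benjamini-Hochberg method over all genes tested, and SE were derived from its statistics. A call needed a log2 fold change over 0.5 beside an adjusted p under 0.05. P-values measure the spread between cultures. Pairs of cultures of 1 dose differed by at least 18.3 times counting noise (chi-square per degree of freedom), so none was counted as a repeat. The model was also run on simulated counts, drawn independently for each culture without letter sets or a culture like G. That run cannot show how the fit behaves with these features, and no conclusion is drawn from it.

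The members and lists were chosen with earlier results of these data known. Genes outside the 10 were named as the 2 with the largest fitted difference between the doses in each list, any called gene, and the 3 closest in pattern to each member. Cntn5 and the marker genes Gfap, Aldoc, Slc1a3, Glul and Col1a2 were named after their values were seen. Alternatives were no factor, 2 factors, DESeq2 1.42.0 with the same factor, its size factors in edgeR, no filter on low counts, a replicate block by letter sets with and without culture G, and each culture left out in turn. Leaving out set GHI was chosen after seeing the data.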

Additional observations from a re-analysis of the deposited data

Results flagged for a closer look

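Of 30 groups of 4 cultures (10 genes at 3 doses), 6 held a culture farther from its neighbours than Dixon's 95% limit allows. That limit is passed by about 1 in 20 groups of independent, normally distributed values. Here it was applied to CPM without a log, each flag was a highest value, and the groups share cultures. The rate is therefore no measure of chance for these groups. In untreated cultures, Acan was highest in culture P at 15.6 CPM, with 2.81 CPM in the next. Hapln1 was highest in untreated culture M at 3.84 CPM, with 1.25 CPM in the next. Tnc was highest in untreated culture G at 309 CPM, with 38.3 CPM in the next, and Has2 was highest there too, at 9.15 CPM with 1.89 CPM in the next. In high dose cultures, Ncan was highest in culture R at 1776 CPM, with 361 CPM in the next, and Ptprz1 was highest in R at 610.3 CPM, with 369 CPM in the next. Cultures P and R belong to the letter set in which Ncan and Acan had their highest set means.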

How the results depend on the processing

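Of 30 member differences (10 genes in 3 comparisons), 0 were called in any of 19 alternatives, 5 kept their sign in all of them and 25 changed sign in at least 1. The 5 were Acan in low dose vs. untreated (0.06 to 2.02), and Acan (-2.11 to -1.26), Vcan (0.01 to 0.70), Tnr (0.10 to 0.83) and Tnc (0.14 to 1.13) in high dose vs. low dose cultures. All 30 mean levels moved by less than 1 SD between cultures when scaled by library size alone or with 1 culture of the dose left out. This outcome was fixed in advance and is no test of robustness. The TMM factors lay between 0.975 and 1.03, and leaving out 1 of 4 cultures cannot move a mean by 1 SD. The median SE of a member's log2 difference was 0.62 to 0.64 in the reported fit and 0.13 to 0.15 with the letter sets as a block and without culture G. Depth is lowest for Acan, Hapln1 and Has2, with as few as 4, 5 and 13 counts in a culture.

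Without the factor, the log2 difference in low dose vs. untreated cultures was 0.019 for Bcan, -1.25 for Tnc and -0.91 for Has2, and at the high dose -0.67 for Tnc and -0.69 for Has2. With 2 factors it was 0.20 for Bcan and 0.10 for Vcan in the first comparison and 0.082 for Bcan and -0.17 for Hapln4 in the second. The factor of the reported fit was 0.93 in culture G and between -0.22 and 0.15 in the other cultures, so it largely marked G. The cause of these reversals was not tested. DESeq2 called 3 genes at the high dose against untreated cultures and 1 against the low dose, and 2 factors called 1 gene in each, where the reported fit called 0.

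The letters are not a stated pairing, and deviations from the dose means correlated by over 0.1 in 10 of the 12 pairs of cultures of 1 letter set (median 0.71) but not in G with H (-0.16) or G with I (-0.02), so the letter sets were used as a replicate block in an alternative and not in the reported fit. Under the replicate block Bcan had 0.072, Tnc -0.80 and Has2 -0.52 in low dose vs. untreated, and Tnc -0.35 and Has2 -0.28 in high dose vs. untreated cultures. With culture G also left out, the block called 0 of 12337 genes at the low dose against untreated cultures (0%), 15 at the high dose against untreated cultures (0.122%) and 14 between the 2 doses (0.113%), and none of the 10. An unadjusted p under 0.05 was then reached by 1 member (Hapln4, 7.54% of all genes), 2 members (Hapln4 and Tnc, 9.43%) and 3 members (Acan, Vcan and Tnr, 13.6%) in the same order, and between the 2 doses by Vcan and Tnr when G was kept in the block. In that fit Hapln4 was at -0.32 (SE 0.10, adjusted p = 0.644) in the first comparison and at -0.43 (SE 0.10, adjusted p = 0.208) in the second, Hapln1 at -0.21 in the second, and Vcan at 0.32 (SE 0.10, adjusted p = 0.217), Tnr at 0.44 (SE 0.12, adjusted p = 0.165) and Acan at -1.45 (SE 0.43, adjusted p = 0.188) in the third (edgeR).

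Leaving out each culture in turn gave 0 calls in each comparison. In low dose vs. untreated cultures the differences then ranged from -0.63 to 0.83 for Bcan, -1.63 to 0.55 for Ncan, -0.71 to 0.55 for Vcan, -0.48 to 0.71 for Hapln1, -0.30 to 0.69 for Hapln4, -0.74 to 0.42 for Tnr, -0.48 to 0.75 for Tnc, -0.82 to 0.071 for Ptprz1 and -0.27 to 0.34 for Has2. In high dose vs. untreated cultures they ranged from -1.44 to 0.19 for Acan, -0.77 to 0.64 for Bcan, -1.79 to 0.51 for Ncan, -0.38 to 0.86 for Vcan, -0.15 to 1.04 for Hapln1, -0.51 to 0.60 for Hapln4, -0.30 to 0.85 for Tnr, -0.80 to 0.11 for Ptprz1 and -0.11 to 0.52 for Has2. In high dose vs. low dose cultures they ranged from -0.67 to 0.26 for Bcan, -1.32 to 0.96 for Ncan, -0.027 to 0.64 for Hapln1, -0.42 to 0.20 for Hapln4, -0.24 to 0.36 for Ptprz1 and -0.043 to 0.42 for Has2. Leaving out untreated culture P turned the most signs, Acan in high dose vs. untreated cultures among them (0.19).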

Other observations

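The balance of the glial matrix genes was compared after their values had been seen, as log2 ratios of the CPM of 2 genes, where only differences between cultures can be read and not the ratio itself. Tnr over Bcan was -0.84, -1.83, -0.32 and -1.17 in low dose cultures B, H, N and Q and -0.38, -0.39, -0.20 and -0.73 in high dose cultures C, I, O and R, so that it was higher at the high dose in each of the 4 letter sets. In untreated cultures A, G, M and P it was -0.75, -0.77, -0.64 and -0.97. The same held for Vcan over Bcan, with -1.14, -1.46, -0.58 and -1.27 at the low dose and -0.77, -0.47, -0.30 and -0.98 at the high dose, and with -1.16, -0.51, -0.81 and -1.20 in untreated cultures. For both ratios the high dose culture was the highest of its set in all 4 sets. Of the ratios of all 12270 other genes tested to Bcan, 12.7% were higher at the high than at the low dose in all 4 sets and 2.89% were highest at the high dose in all 4. The ranges of the doses overlapped. Tnr over Vcan stayed between -0.36 and 0.41 in the 12 cultures, and Ncan over Bcan was 3.04 in culture G and between -1.06 and 0.67 in the other 11.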
